A study of Mus musculus with 6 samples.

Results

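Genes that move iron, and the copper on which iron export depends, were followed by RNA-seq in axitinib-resistant 4T1 cells sorted by β-galactosidase activity. They were Cp, Slc40a1, Lcn2, Tfrc, Slc11a2, Fth1, Ftl1, Aco1, Ireb2 and Atp7a, 10 of the 53465 genes in the deposited table, and all 10 passed the filter on low counts. The genes were chosen by symbol, with their differences between the sorted fractions already known, so those differences are given as a description and the adjusted p-values beside them are not independent evidence. 4T1 is a mouse mammary carcinoma line. One resistant population was obtained in vivo from lesions after surgery, under axitinib (a VEGF receptor kinase inhibitor) at 100 mg/kg/day, and it was kept in culture with 0.5 µM axitinib, so both fractions share the selection and the drug. C12FDG, a β-galactosidase substrate that becomes fluorescent on cleavage, separated a high-activity fraction (SM positive, 3 libraries) from a low-activity fraction (SM negative, 3 libraries). High activity at this enzyme is widely used as a sign of senescence.

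Cells take up transferrin-bound iron through the transferrin receptor, move it out of endosomes through the divalent metal transporter DMT1 and store the surplus in ferritin shells of heavy and light chains. The only known mammalian exporter of ferrous iron is ferroportin, and a copper-bearing ferroxidase such as ceruloplasmin oxidises the iron as it leaves. Iron regulatory proteins 1 and 2 sense cytosolic iron: when iron is scarce they bind a hairpin called the iron-responsive element, which blocks translation when it lies in a 5′ UTR and protects the mRNA when it lies in the 3′ UTR of the transferrin receptor. Lipocalin 2 is a secreted protein of inflammation and epithelial stress that captures iron-loaded siderophores.

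The hairpins are shown because iron acts through them on the mRNAs that carry them. GENCODE M21 coding transcripts (GRCm38) were searched for the loop CAGTGN between stems of 5 pairs, G-U pairs allowed, with a C directly before the stem. Of the 10 genes, 4 held such an element. The windows below have 27 bases, read 5′ to 3′ on the strand of the gene, with the loop in capitals.

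Fth1 (5′ UTR, chr19:9982733-9982759, plus strand): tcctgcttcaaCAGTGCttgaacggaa
Ftl1 (5′ UTR, chr7:45459780-45459806, minus strand): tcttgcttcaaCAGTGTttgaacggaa
Slc40a1 (5′ UTR, chr1:45925466-45925492, minus strand): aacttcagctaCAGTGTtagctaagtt
Tfrc (3′ UTR, chr16:32631220-32631246, plus strand): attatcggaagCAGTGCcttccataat
Tfrc (3′ UTR, chr16:32631599-32631625, plus strand): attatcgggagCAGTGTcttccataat
Tfrc (3′ UTR, chr16:32631664-32631690, plus strand): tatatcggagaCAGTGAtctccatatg
Tfrc (3′ UTR, chr16:32631711-32631737, plus strand): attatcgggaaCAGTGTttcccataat

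The windows of Fth1 and Ftl1 were identical at 25 of 27 positions, and each matched the Slc40a1 window at 13. The 4 windows of Tfrc matched one another at 17 to 25 positions. An element of this form was found in a 5′ UTR of 31 of 20916 genes (0.148%) and in a 3′ UTR of 129 of 21045 genes (0.613%). It lay in 4 of 5 annotated coding transcripts of Fth1, 1 of 2 of Ftl1, 1 of 4 of Slc40a1 and 1 of 3 of Tfrc. The count of each of these 4 genes would therefore pool any mRNAs with and without it. Which of these transcripts the cells made was not measured. No match was found in the UTRs of Slc11a2, Cp, Lcn2, Aco1, Ireb2 or Atp7a, which says only that this strict pattern does not occur there. A loop whose stem departs from the 5 pairs would be missed. Slc11a2 is counted below among genes whose mRNAs are known to carry an element, so the search does not separate carriers from the rest.

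Of the 10 genes, 3 rose in SM positive cells, and none fell; none was lower at an unadjusted p below 0.05 with edgeR, DESeq2 or limma-voom. The 3 were Cp, Slc40a1 and Lcn2, each 1.81-fold to 1.96-fold higher, and all SM positive libraries lay above all SM negative libraries for each of them. The other 7, which encode the uptake, storage, regulatory and copper-pump proteins, differed by 1.14-fold or less and did not pass the threshold. The test was edgeR's quasi-likelihood test with the replicate number as a block, adjusted over all 14038 genes tested, at a threshold of 0.05. It called 14.1% of all genes, 8.52% higher and 5.6% lower in SM positive cells. Without the block it called 1.35% of all genes (1.14% higher, 0.214% lower), and the same 3 of the 10. DESeq2 called 5.04% of all genes and limma-voom 11.3%, and both called the same 3. The fractions' libraries did not overlap for 19.9% of all genes, with SM positive above for 10.4% and below for 9.47%. The median log2 change was 0.10 over the 10 genes and -0.001 over all genes tested.

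**Figure D1:**
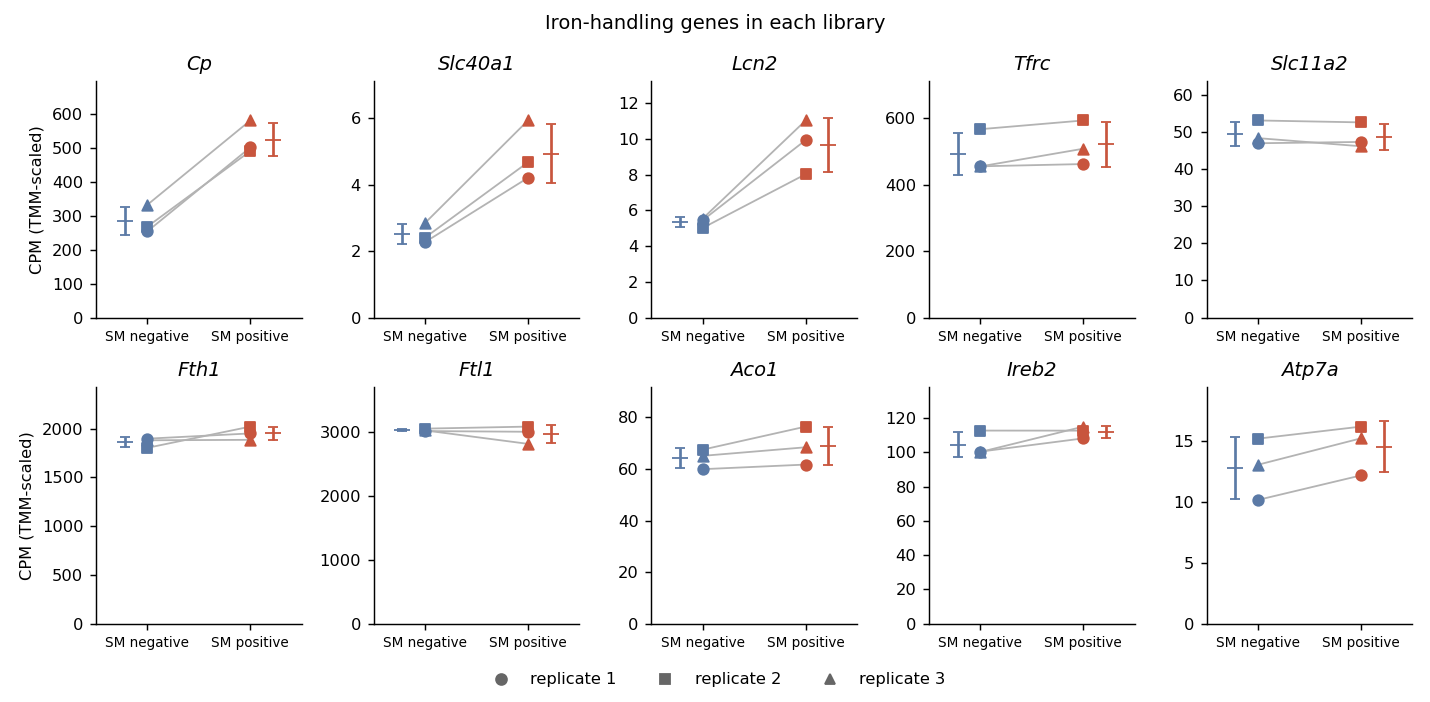
Level (CPM, linear axes from 0) of the 10 genes in each library, with lines joining libraries of the same replicate number and bars giving mean ± SD over n = 3 libraries per fraction. The lines climb in all 3 pairs for Cp, Slc40a1 and Lcn2, by log2 differences of 0.67 to 1.04, and also for Tfrc, Fth1, Aco1 and Atp7a, by 0.0035 to 0.26.

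Cp encodes ceruloplasmin, the ferroxidase that carries most of the copper of plasma and also occurs anchored to cell membranes (ENSMUSG00000003617.16, chromosome 3, 19957054 to 20009145, plus strand). Levels are given in CPM, counts per 1000000 of a library's TMM-scaled total. Cp stood at 254, 268 and 332 CPM in SM negative replicates 1, 2 and 3, and 501, 491 and 581 CPM in the SM positive replicates. Replicate 3 was the highest in both fractions, and the fractions did not overlap. The means were 285 ± 41.7 and 524 ± 49.3 CPM (SD, n = 3), a log2 change of 0.89 ± 0.0419 (SE; edgeR adjusted p = 4.35e-11). The 3 pairs gave log2 differences of 0.98, 0.87 and 0.81. Cp was chosen with its rise known, so ranks of that rise are only a description, and they depend on the level cut. Among the 2346 genes with a mean of at least 100 CPM, no other gene had as large a rise. Over all 14038 genes tested, the rise of Cp had rank 83, that of Slc40a1 rank 62 and that of Lcn2 rank 103. Hps3, a gene on the opposite strand, overlaps exons of Cp. Whether reads were assigned by strand is not given in the sources used here. Hps3 itself stood at 41.5 ± 1.25 CPM in SM negative and 38.4 ± 1.28 CPM in SM positive cells (log2 change -0.11, edgeR adjusted p = 0.157).

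Slc40a1 encodes ferroportin (ENSMUSG00000025993.10, chromosome 1, 45908068 to 45926523, minus strand). It stood at 2.27, 2.4 and 2.84 CPM in SM negative and at 4.2, 4.67 and 5.93 CPM in SM positive replicates 1, 2 and 3, again with no overlap. These levels rest on 45 to 60 counts per SM negative and 100 to 117 counts per SM positive library. The log2 change was 0.97 ± 0.154 (SE; edgeR adjusted p = 0.000215), with pairs at 0.86, 0.93 and 1.04. The rise of the exporter was thus near that of the ferroxidase in size, at a per-length level above 8.51% of the genes tested (15.0% by the length of the longest transcript). The 95% intervals of their log2 changes, 0.65 to 1.29 for Slc40a1 and 0.80 to 0.97 for Cp, overlapped.

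Hephaestin and its relative encoded by Hephl1 are the other ferroxidases of iron export. Heph and Hephl1 had 0 counts in all 6 libraries, which allows at most 0.113 to 0.16 CPM by library (3 counts, counting error only). Flvcr1, a heme and choline transporter of the cell surface, was the tested gene of the export list besides Cp and Slc40a1. Its log2 change was 0.08 (edgeR adjusted p = 0.386).

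Lcn2 encodes lipocalin 2 (ENSMUSG00000026822.14, chromosome 2, 32384633 to 32388252, minus strand). It stood at 5.45, 5.02 and 5.54 CPM in SM negative and at 9.94, 8.03 and 11.04 CPM in SM positive replicates 1, 2 and 3. The SM positive libraries spread more widely than the SM negative ones, and the lowest of them still lay above every SM negative library. The log2 change was 0.85 ± 0.109 (SE; edgeR adjusted p = 1.83e-05), from 94 to 137 counts per SM negative and 172 to 265 counts per SM positive library. Slc22a17, which encodes a cell-surface receptor for lipocalin 2, had 0 counts in all 6 libraries. Bdh2, an enzyme linked to the making of a mammalian siderophore, lay between 0.321 and 0.607 CPM (log2 change 0.61, edgeR adjusted p = 0.343).

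The 3 calls rested unequally on single libraries. With the block, they held with any replicate number left out, at adjusted p = 0.0117 or less. Without the block, the adjusted p was 0.00913 for Cp, 0.0185 for Lcn2 and 0.0325 for Slc40a1 with all libraries. In fits without the block, Cp lost its call without SM negative replicate 2 (adjusted p = 0.0572). Lcn2 lost it without SM negative replicate 1 (0.0658), 2 (0.0977) or 3 (0.069) or SM positive replicate 3 (0.0745). Slc40a1 lost it without SM negative replicate 1 (0.128), 2 (0.135) or 3 (0.0823) or SM positive replicate 2 (0.0686) or 3 (0.115). The log2 changes in all of these fits lay between 0.75 and 1.08 for the 3 genes.

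**Figure D2:**
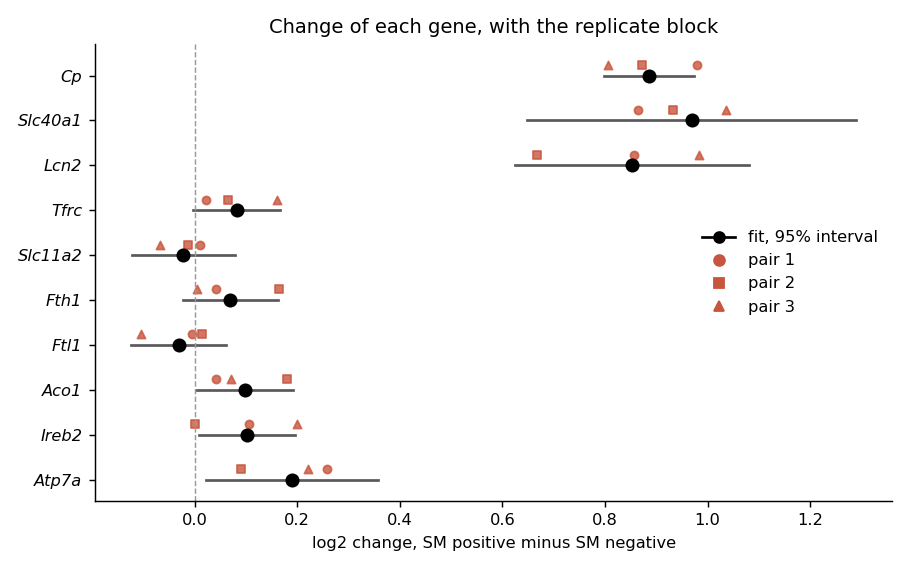
Log2 change of each gene, SM positive minus SM negative: black points and lines are the blocked fit with its 95% interval, and coloured symbols are the differences within each replicate number. Cp, Slc40a1 and Lcn2 lie between 0.85 and 0.97, and the other 7 genes between -0.03 and 0.19.

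The uptake genes did not pass the test. Tfrc, the transferrin receptor (chromosome 16, 32608920 to 32632794, plus strand), stood at 455, 567 and 455 CPM in SM negative and at 462, 593 and 508 CPM in SM positive replicates 1, 2 and 3. Replicate 2 was the highest in each fraction. The fractions overlapped, but within each replicate number the SM positive library was the higher, with log2 differences of 0.02, 0.07 and 0.16. Its log2 change of 0.08 had a 95% interval of -0.003 to 0.17 (edgeR adjusted p = 0.199). Slc11a2, which encodes DMT1 (chromosome 15, 100387898 to 100425072, minus strand), stood at 47.0, 53.1 and 48.3 CPM in SM negative and at 47.3, 52.6 and 46.1 CPM in SM positive libraries. Here too replicate 2 was the highest in each fraction. Its log2 change was -0.02, with a 95% interval of -0.12 to 0.08.

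The ferritins were the most abundant of the 10 mRNAs. Fth1, the heavy chain with ferroxidase activity (chromosome 19, 9980598 to 9985098, plus strand), stood at 1897, 1803 and 1881 CPM in SM negative and at 1951, 2021 and 1885 CPM in SM positive libraries. The ranges overlapped, and the log2 differences within replicate numbers were 0.04, 0.16 and 0.0035. Its log2 change was 0.07 with a 95% interval of -0.02 to 0.16 (edgeR adjusted p = 0.337). Ftl1, the light chain (chromosome 7, 45457944 to 45459884, minus strand), stood at 3013, 3051 and 3023 CPM in SM negative and at 3002, 3083 and 2813 CPM in SM positive libraries. Its log2 change was -0.03 with a 95% interval of -0.12 to 0.06. The Ftl1 value is uncertain, because 57.7% of the 31-base stretches of its transcripts also occur in transcripts of other genes, chiefly processed copies, against 3.24% for Fth1. The copy Ftl1-ps1 was credited with 259 ± 18.0 and 262 ± 28.2 CPM in SM negative and SM positive libraries, and Ftl2-ps with 3.9 to 33.8 CPM by library. Exons of Ftl1 are also overlapped by Gm22133 on the same strand and Gm10252 on the opposite strand. Gm22133 was credited with 40.7 ± 7.39 CPM in SM negative and 45.5 ± 9.45 CPM in SM positive libraries (edgeR adjusted p = 0.0369, 0.774 without the block). Translation of both ferritins is where iron acts through the hairpins shown above, and these mRNA levels do not measure it.

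Aco1 and Ireb2 encode the iron regulatory proteins, the first of which is also a cytosolic aconitase when it holds an iron-sulphur cluster. Aco1 (chromosome 4, 40143081 to 40198338, plus strand) stood at 59.9, 67.5 and 65.1 CPM in SM negative and at 61.7, 76.4 and 68.4 CPM in SM positive libraries. It was higher in SM positive cells in all 3 pairs, by 0.04 to 0.18 on the log2 scale, while the fractions overlapped (edgeR adjusted p = 0.169). Ireb2 (chromosome 9, 54863789 to 54912530, plus strand) stood at 100.4, 112.7 and 100.2 CPM in SM negative and at 108, 112.7 and 115 CPM in SM positive libraries (log2 change 0.10, edgeR adjusted p = 0.147). Fbxl5, the iron-sensing F-box protein that directs breakdown of iron regulatory protein 2, stood at 48.2 ± 2.21 and 47.9 ± 1.08 CPM.

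Atp7a encodes a P-type ATPase that pumps copper into the secretory pathway, where ceruloplasmin receives it (chromosome X, 106027276 to 106124926, plus strand). It stood at 10.1, 15.2 and 13.0 CPM in SM negative and at 12.2, 16.2 and 15.2 CPM in SM positive libraries. Each SM positive library exceeded the SM negative library of its number, and the fractions overlapped. Its log2 change was 0.19 with a 95% interval of 0.02 to 0.36 (edgeR adjusted p = 0.127). The related pump gene Atp7b lay between 0.075 and 0.534 CPM, and the copper importer gene Slc31a1 stood at 77.3 ± 5.29 and 78.3 ± 3.28 CPM. At an unadjusted p below 0.05, 3 of the 7 uncalled genes were higher with edgeR and the block (Aco1, Ireb2 and Atp7a), 2 with limma-voom, and none with DESeq2 or with edgeR without the block. Over all genes tested, the shares below that unadjusted p in either direction were 27.3%, 26.5%, 12.5% and 13.6% in the same order. The part of them that was lower made up 12.5%, 12%, 4.97% and 5.58% of all genes.

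Levels of different genes were compared per length, as counts per kilobase of merged exons scaled to a common total (TPM). In SM negative cells Ftl1 stood at 6132 ± 182 TPM, Fth1 at 1454 ± 30.0, Tfrc at 216 ± 31.8 and Cp at 80.9 ± 13.1. Aco1 followed at 38.7 ± 3.24, Ireb2 at 29.9 ± 2.54, Slc11a2 at 21.1 ± 1.79 and Lcn2 at 5.52 ± 0.266. Atp7a at 3.98 ± 0.868 and Slc40a1 at 0.756 ± 0.103 TPM were the lowest. In SM positive cells the order was the same, with Cp at 152 ± 15.4, Lcn2 at 10.2 ± 1.67 and Slc40a1 at 1.52 ± 0.286 TPM. The per-length mRNA level of the ferroxidase gene was thus far above that of the exporter gene in both fractions. Aco1 and Ireb2 changed places when the length of the longest transcript was used. The merged exons of Slc40a1 span 9000 bases and its longest transcript 3928, and by the latter its levels were 1.37 and 2.76 TPM. By the longest transcript Cp stood at 134 and 252 TPM and Lcn2 at 8.34 and 15.4 TPM.

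How the genes differed between replicate numbers was not used to choose them and could be tested. Of the 10 genes, 4 differed between replicate numbers in the same edgeR fit (Tfrc adjusted p = 0.000175, Cp 0.000443, Atp7a 0.00418, Aco1 0.0125), against 17% of all genes tested. DESeq2 called 2 of the 10, against 653 of all 14038 genes. Tfrc and Aco1 were highest in replicate 2 of each fraction, Cp was highest in replicate 3 of each, and Atp7a and Aco1 were lowest in replicate 1 of each. The replicate number took 89.5% of the sum of squares of log2 CPM for Tfrc, 93.7% for Slc11a2, 80.4% for Atp7a and 74.8% for Aco1. Slc11a2 did not pass the edgeR test between replicate numbers (adjusted p = 0.0762). The SD of its log2 CPM was 0.087, against 0.169 for Tfrc and 0.251 for Atp7a. The shares are not corrected for the replicate number having more levels than the fraction. The sorted fraction took 90.8% for Cp, 89.8% for Lcn2 and 88.2% for Slc40a1. For the ferritins, 46.3% of the sum of squares of Fth1 and 37.2% of that of Ftl1 went with neither. Over all genes tested, the medians were 19.3% for the fraction and 48.3% for the replicate number.

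**Figure D3:**
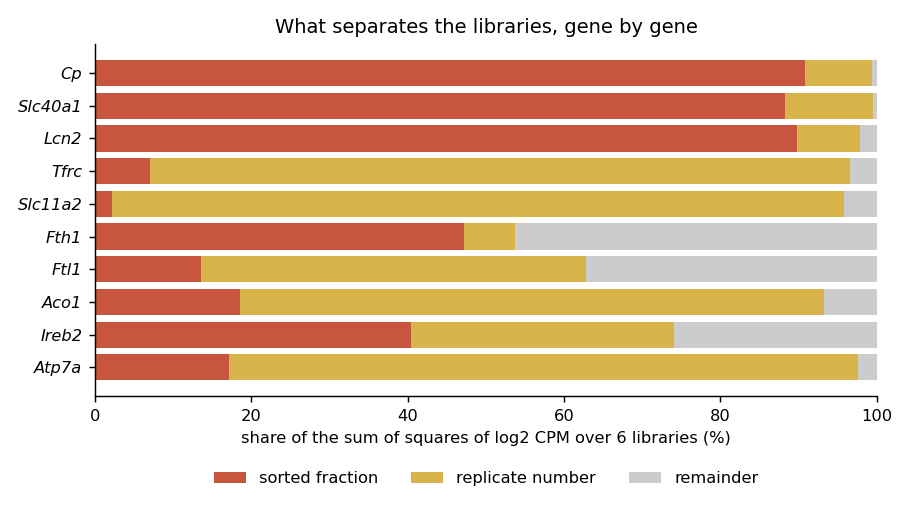
Share of the sum of squares of log2 CPM over the 6 libraries that goes with the sorted fraction, with the replicate number, or with neither, for each of the 10 genes. The fraction takes 88.2% to 90.8% for Cp, Slc40a1 and Lcn2, and the replicate number takes 74.8% to 93.7% for Tfrc, Slc11a2, Aco1 and Atp7a.

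As a description over 6 libraries, log2 CPM of Cp and Slc40a1 correlated at r = 0.99, Cp and Lcn2 at 0.96, and Lcn2 and Slc40a1 at 0.94. Tfrc correlated at 0.87 with Aco1, 0.83 with Atp7a and 0.82 with Slc11a2, but at 0.17 with Cp. These values share the 2 fractions and 3 replicate numbers among all genes. Of 10560 other genes with a mean of at least 5 CPM, 342 reached r above 0.9 with Cp and 382 with Lcn2. The 5 nearest to Cp were Ephb6, Agrn, Inmt, Prom2 and Arel1 (r = 0.99 to 1.00). The 5 nearest to Lcn2 were Ablim1, Tacc1, Wls, Cpq and Pnpla8 (r = 0.99 to 1.00).

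The wider pathway was read from lists of iron, heme, copper and iron-sulphur genes written from general knowledge, less the 10 genes above. Of 111 such genes, 87 were tested, 9 fell in SM positive cells and none rose. The share called was 10.3%, below the 14.1% called over all genes, and all of it was lower, against 5.6% lower over all genes. The median log2 change was -0.03 over the 87 genes and -0.001 over all genes tested. At an unadjusted p below 0.05, 13 were lower and 2 higher, and 12.5% of all genes were lower. Limma-voom also called 9 lower and none higher (15 at an unadjusted p below 0.05), with 4.12% of all genes called lower and 12% lower before adjustment. DESeq2 called 1 lower and none higher (8 at an unadjusted p below 0.05), with 1.57% of all genes called lower and 4.97% lower before adjustment. Without the block edgeR called none of the 87, with 8 lower and 1 higher at an unadjusted p below 0.05, when 5.58% of all genes were lower. With 17 more genes that belonged to the acute-phase list alone, 11 of 91 tested genes were called, and this number was 2 without replicate 1 and 6 without replicate 3.

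Genes of mitochondrial iron and iron-sulphur clusters (4) and of cytosolic cluster assembly (3) made up 7 of the 9. These lists held 23 and 9 of the 87 tested genes, so 17.4% and 33.3% of their genes were called, all of them lower. Of all genes, 14.1% were called and 5.6% were called lower, and the lists were not tested as sets. Fdx1l, which encodes the mitochondrial ferredoxin of cluster synthesis, fell from 30.1 ± 1.85 to 24.2 ± 1.29 CPM, a log2 change of -0.31 ± 0.0588 (SE; edgeR adjusted p = 0.00102, 0.102 without the block). Hspa9, the mitochondrial HSP70 chaperone, fell from 1489 ± 84.2 to 1328 ± 89.3 CPM (adjusted p = 0.00917, 0.29 without the block). Slc25a37, the iron importer mitoferrin 1, fell from 115 ± 7.73 to 103 ± 11.03 CPM (adjusted p = 0.015, 0.443 without the block). Cisd3, a mitochondrial iron-sulphur protein gene named here after its value was seen, was the fourth of 23 tested mitochondrial genes, and none of the 23 rose or was higher at an unadjusted p below 0.05 with edgeR or DESeq2. Of 9 tested genes of the cytosolic assembly pathway, 3 fell and all 9 had a negative log2 change, when 6978 of all 14038 genes had a positive one. The 3 were Ciao2b (log2 change -0.28) and Mms19 (-0.17), which pass clusters to target proteins, and the electron donor Ndor1 (-0.26). None of the 7 passed without the block.

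The remaining 2 were Steap1 (log2 change -0.20, adjusted p = 0.0146, 0.763 without the block), of a family of metal reductases, and Bola2 (-0.22, adjusted p = 0.0262, 0.264 without the block). Bola2 partners glutaredoxin 3 in handing on cytosolic iron. Ncoa4, the receptor that takes ferritin to the lysosome for breakdown, stood at 110.4 ± 2.76 and 117 ± 5.92 CPM, with an edgeR adjusted p of 0.199. Steap4, a metal reductase of the Steap1 family, lay between 0.234 and 0.374 CPM and was not tested.

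No heme gene and no copper gene of the lists passed the threshold, which 14.1% of all genes passed. Of 17 tested heme genes, 2 were higher and 1 was lower at an unadjusted p below 0.05, and DESeq2 (1 at an unadjusted p below 0.05) and limma-voom (3) called none after adjustment. Hmox1, the inducible heme oxygenase, stood at 144 ± 18.9 and 142 ± 33.5 CPM, with an edgeR adjusted p of 0.731. Of 14 tested copper genes, none was below an unadjusted p of 0.05 with edgeR, DESeq2 or limma-voom. Over all genes tested, the shares below that unadjusted p were 27.3%, 12.5% and 26.5% in the same order. The metallothionein genes Mt1 and Mt2 had log2 changes of 0.01 and 0.05. Of 8 tested genes whose mRNAs are known to carry iron-responsive elements, 5 were among the 10 genes above (Fth1, Ftl1, Slc40a1, Tfrc and Slc11a2). Slc40a1 was the 1 of the 8 that rose, when 8.52% of all genes were called higher.

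Of 20 acute-phase and innate defence genes, which Lcn2 and Cp often accompany in inflammation, only 5 passed the filter on low counts. Of these 5, 2 were called, both higher, against 14.1% of all genes called and 8.52% called higher. Slpi, a secreted inhibitor of leukocyte proteases, rose from 6.83 ± 0.977 to 10.8 ± 0.823 CPM, by 0.66 ± 0.102 on the log2 scale (SE; edgeR adjusted p = 0.000143, 0.0364 without the block). Complement C3 rose from 53.7 ± 4.09 to 61.3 ± 9.56 CPM with the block (adjusted p = 0.0153, 0.494 without it). Nfkbiz, an NF-κB cofactor known for Lcn2 induction, had a log2 change of 0.12 (adjusted p = 0.257). Saa3, a serum amyloid gene, lay between 0 and 0.142 CPM.

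**Figure D4:**
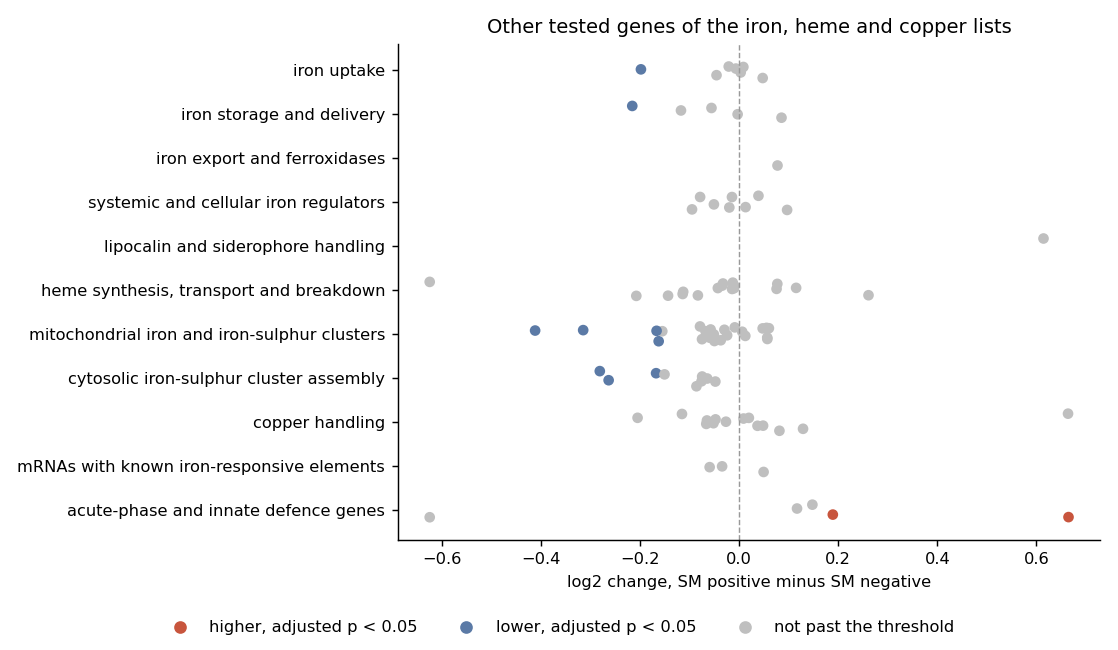
Log2 change, SM positive minus SM negative, of the tested genes in each list other than the 10 genes (1 point per gene, jittered vertically, Hpx in 2 lists), coloured by the call of the blocked fit. The called iron-sulphur, Steap1 and Bola2 points lie left of 0, and Slpi and C3 lie right of it.

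Markers of other cells were counted because neutrophils also store lipocalin 2 and macrophages also express ferroportin. In bulk libraries, fewer cells of a type and less RNA per cell cannot be told apart. Krt8, Krt18, Epcam and Cdh1 marked the carcinoma cells, the 5 epithelial markers summing to 2834 to 3006 CPM in SM negative and 2711 to 2890 CPM in SM positive libraries, with Krt19 at 1.71 and 0.917 CPM. The sum is mostly Krt8, Krt18 and Cdh1. Epcam was lower in SM positive cells (log2 change -0.16, edgeR adjusted p = 0.0147, 0.266 without the block), as was Krt19 (-0.88, 0.0263 and 0.16). Of 10 neutrophil markers, 7 were at 0 in all libraries, among them Ltf, Elane and S100a9, and their sum was at most 0.214 CPM in SM negative and 0.075 CPM in SM positive libraries. Of 9 macrophage and leukocyte markers, Adgre1, C1qa and C1qb were at 0, and the sum was 6.73 to 8.91 CPM in SM negative and 5.04 to 6.53 CPM in SM positive libraries, most of it Cd68, which was lower in SM positive cells (log2 change -0.46, edgeR adjusted p = 0.0148, 0.233 without the block). The erythroid sum was at most 0.641 CPM and the endothelial sum at most 0.694 CPM in any library. Of 6 fibroblast markers, Lum and Col3a1 were at 0. Their sum was 3.70 to 4.42 CPM in SM negative and 5.00 to 7.04 CPM in SM positive libraries, most of it Pdgfra (edgeR adjusted p = 0.0423, 0.246 without the block), and Pdgfra was higher. The part of these marker differences in the rise of the 3 genes was not tested. Total counts per library ran from 18733801 to 26533528.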

How the data were processed

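RNA-seq libraries were made from polyadenylated RNA with a stranded kit, per the labels' protocols. The authors deposited expected counts for each gene, which need not be whole (13.5% to 14.4% of a library's values are not). Per the submitters' processing notes, FastQC 0.11.5, STAR 2.6.0a, RSEM 1.3.1 and GRCm38 were used, and the annotation release is not given in the sources used here. Identifiers were matched to GENCODE M21 without version numbers (99.8% matched).

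Counts were rounded, filtered with filterByExpr, scaled by TMM and tested with edgeR 4.0.16 (R 4.3.3, robust fit), with fraction and replicate number as terms and Benjamini-Hochberg adjustment over the 14038 genes left. Log2 CPM used a prior count of 2. Pairing by replicate number was set in advance for this comparison. As a check on it, deviations from the fraction means were correlated between libraries. The values were 0.22, 0.28 and 0.196 between libraries of the same number, above the minimum of 0.1, and -0.043 or less between others. A gene's deviations cancel within a fraction, which pulls the values between other numbers down when the same-numbered ones are positive. The negative values therefore add no support for the pairing. The labels do not say what a number marks or whether cultures were separate, so each p-value reflects only variation among these 6 libraries, possibly technical. The fitting script was also run on simulated counts with known changes.

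The genes, the lists and the rule for named genes were chosen with earlier results of these data known. From each list the rule took up to 3 called genes in each direction of lowest p, given a mean level of 1 CPM or more. It also took Heph, Slc22a17, Fbxl5, Ncoa4, Hmox1, Slc31a1, Atp7b and Steap4 whatever their values, and the 5 genes most correlated with Cp and with Lcn2. Other list genes and the markers were named after their values were seen. Alternatives were no block, RLE factors, library totals, no filter, a minimum above 1 CPM in 3 libraries, limma-voom (limma 3.58.1), DESeq2 1.42.0, no robust estimation, a threshold of 0.01 and leaving out libraries.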

Additional observations from a re-analysis of the deposited data

How the results depend on the processing

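Cp, Lcn2 and Slc40a1 were called higher under every setting that kept the replicate block, and 3 of the 10 genes were called with no replicate block too. Leaving out libraries, with or without the block, gave 0 to 3 called genes of the 10. Counts over all genes depended more on the processing. Against 1982 genes called, there were 190 with no replicate block, 612 with DESeq2, 939 at a threshold of 0.01, and 705 to 1793 without one replicate number. Without the block and without 1 library, there were 43, 25 and 39 with SM negative replicate 1, 2 or 3 left out and 123, 117 and 48 with SM positive replicate 1, 2 or 3 left out. Against 11 other listed genes, there were 1 with no replicate block, 2 with DESeq2, 5 at the threshold of 0.01, and 0 to 9 with libraries left out. Differences between replicate numbers were called for 2393 genes, for 653 with DESeq2 and for 1130 at the threshold of 0.01, and for 4 of the 10 genes against 2 with DESeq2. Genes near 0 changed sign. With the block, leaving out a replicate number gave Ftl1 log2 changes of -0.0541 to 0.0052. With no block, leaving out SM positive replicate 3 gave Ftl1 0.00696 and Slc11a2 0.015, leaving out SM negative replicate 2 gave Slc11a2 0.031, and leaving out SM positive replicate 2 gave Tfrc -0.021. The causes were not tested. Slc40a1 and Lcn2 rest on 45 to 265 counts per library, so their intervals are the widest of the 10.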

Other observations

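The 2 ferritin mRNAs together took 0.471% to 0.505% of all counts in every library. As a value noticed after the data were seen, the ratio of Fth1 to Ftl1 per length was 0.243, 0.228 and 0.24 in SM negative replicates 1, 2 and 3 and 0.251, 0.253 and 0.259 in the SM positive replicates. The fractions did not overlap, although neither gene passed the test. Levels of single genes did not overlap between the fractions for 19.9% of all genes tested. The ratio carries the uncertainty of Ftl1, whose reads are split with its processed copies and whose exons overlap Gm22133 and Gm10252. It was not tested.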
